A study of Arabidopsis thaliana with 2 samples.

Results

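Hybrid proline-rich genes were examined in the wax-deficient Arabidopsis thaliana mutant cer6-2 and its wild type Ler-0. The 10 genes, whose proteins carry a lipid-transfer domain, are AT1G62510, the tandem array AT4G12470 (AZI1), AT4G12480 (EARLI1), AT4G12490, AT4G12500, AT4G12510 and AT4G12520 on chromosome 4, and AT1G12090 (ELP), AT1G12100 and AT2G45180. The members were chosen by locus, with the ratios of these same arrays already known, so every value below is a description and none is tested. A named feature of a single gene existed for 6 of the 10, out of 9236 genes measured in all. AZI1, EARLI1, ELP and AT1G12100 had no named feature and have no value here. No filter on low values was applied to the 6.

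In hybrid proline-rich proteins a signal peptide and a stretch rich in proline precede a domain of paired cysteines that resembles the domain of lipid transfer proteins. That domain folds around a cavity that can hold lipids, and the proteins are found at the cell wall, the plasma membrane and the plastid envelope. AZI1 is known for its role in the priming of systemic resistance by azelaic acid, and EARLI1 was first described as a gene induced by aluminium and responds to cold. CER6, the gene mutated in cer6-2, codes for a ketoacyl-CoA synthase needed to lengthen the very-long-chain fatty acids of epidermal wax.

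Untreated cer6-2 plants were set against Ler-0 plants on 2 Agilent arrays, each hybridised with both RNAs in different dyes. Each RNA came from a pool of 20 plants (leaves and stems), described as 15 days old in one label and 2 weeks old in another. The plants were grown at 22 °C and 80% humidity in long days (16 h light, 8 h dark). Array 1 had cer6-2 in Cy3 and Ler-0 in Cy5, and array 2 the reverse. Both arrays were read as measuring the same pools, 1 for each genotype, which the labels do not state outright. The genotype difference therefore has no replicate check and no p-value is given. Each value is a log2 ratio of cer6-2 over Ler-0, and a mean is followed by ± the SD of both arrays (n = 2, technical). Genotype levels are not given by ratios, so the labelled tissue could not be checked against markers, and no feature was named CER6. To be called, a gene had to reach 2-fold (a log2 ratio of 1) in the same direction on each array. The direction rests on reading each deposited value as Cy5 over Cy3, which no label states. Under the opposite reading, higher and lower change places throughout. In bulk tissue, fewer cells of a type and less RNA per cell cannot be told apart.

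The measured members did not move as a block. AT1G62510 was 4.40-fold higher in cer6-2 with the deposited values read as log10, 2 genes of the tandem array had ratios below 0 in both arrays, and the other 3 members had opposite signs in the 2 arrays. Of the 6, 1 was called higher and none lower. Over all 9236 genes, 0.595% were called higher and 0.725% lower. Opposite signs in the 2 arrays were also found for 53.6% of all genes, against 3 of the 6 members. Ratios below 0 in both arrays were found for 1885 of the 9236 genes. The median of the 6 means was 0.12, against 0.00 over all measured genes. Its sign differed between the arrays, with -0.44 for array 1 and 0.65 for array 2.

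AT1G62510 lies on chromosome 1, apart from the tandem array. Its log2 ratio was 1.44 in array 1 and 2.83 in array 2, with a mean of 2.14 ± 0.98. The base of the deposited logarithm was inferred as 10, and if it were 2 the mean would be 0.64. Both arrays placed it higher in cer6-2, and its mean ranked 7 from the top among the 9236 genes. The arrays differed by 1.39 for this gene, and its SD was reached or passed by 2.26% of genes.

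AT4G12490 had the lowest ratio among the members. It stood at -1.60 in array 1 and -0.96 in array 2, with a mean of -1.28 ± 0.45, a 2.43-fold lower ratio. Both arrays placed it lower in cer6-2, but array 2 fell just short of the 2-fold rule, so it was not called. Its mean ranked 58 from the bottom. AT4G12500, the next measured gene along the array, stood at -1.25 in array 1 and -0.33 in array 2, with a mean of -0.79 ± 0.65. It too was below 0 in both arrays and was not called.

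**Figure D1:**
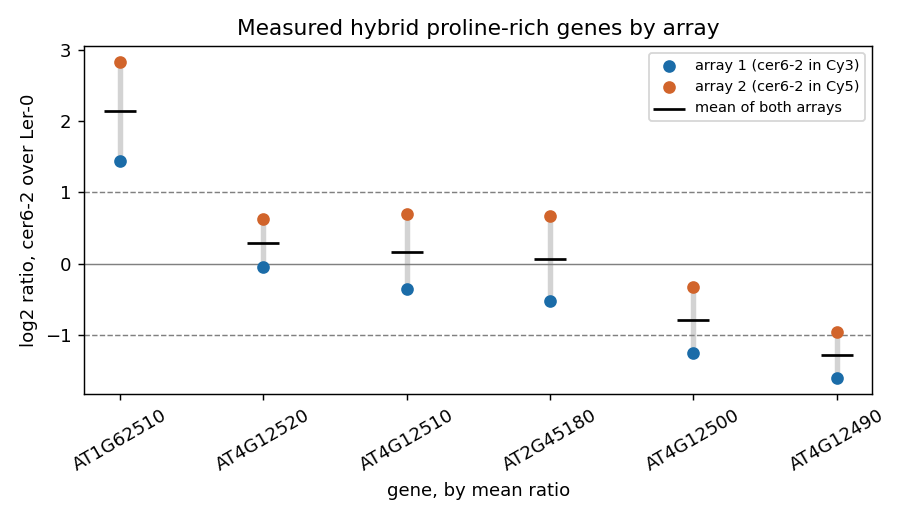
Log2 ratio of cer6-2 over Ler-0 for the 6 measured members, in order of their mean, with a point for each array, a black bar for the mean and dashed lines at 2-fold. AT1G62510 lies above the upper line in both arrays, AT4G12490 and AT4G12500 lie below 0 in both, and the point of array 2 is the higher one for all 6 genes.

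The remaining members straddled 0. AT4G12510 stood at -0.36 in array 1 and 0.69 in array 2, a mean of 0.16 ± 0.74. AT4G12520 stood at -0.05 in array 1 and 0.63 in array 2, a mean of 0.29 ± 0.48. AT2G45180, on chromosome 2, stood at -0.53 in array 1 and 0.66 in array 2, a mean of 0.07 ± 0.84. For each of these genes the distance between the arrays was larger than the mean, so no direction can be given.

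**Figure D2:**
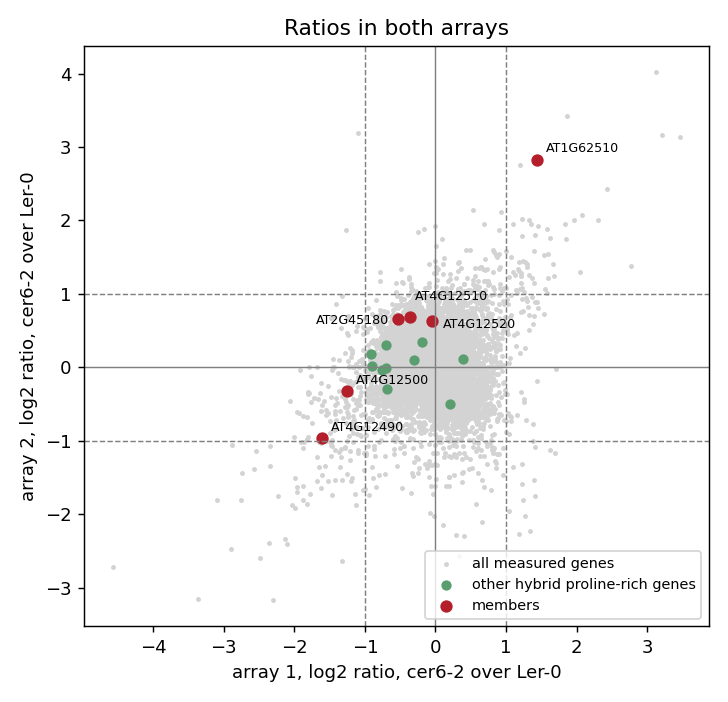
Log2 ratio of cer6-2 over Ler-0 in array 1 (horizontal) and array 2 (vertical) for all 9236 measured genes (grey), the other hybrid proline-rich genes measured (green) and the 6 members (red), with dashed lines at 2-fold. AT1G62510 is at the upper right with 1.44 and 2.83, and AT4G12490 at the lower left with -1.60 and -0.96.

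Within the tandem array, 5 of the 6 differences between pairs of measured genes had the same sign in both arrays. The 6 differences come from only 4 genes and are not independent. The same share over pairs of all measured genes was not computed, so the count has no background. A shift common to the genes of an array drops out of them. AT4G12490 minus AT4G12520 was -1.55 in array 1 and -1.59 in array 2, a mean difference of log2 ratios of -1.57 ± 0.03. That SD was the smallest of the 6. The mean difference was -1.45 ± 0.29 for AT4G12490 minus AT4G12510 and -1.08 ± 0.17 for AT4G12500 minus AT4G12520. AT4G12500 minus AT4G12510 was -0.89 in array 1 and -1.02 in array 2, a mean difference of -0.95 ± 0.09. These 2 are adjacent genes. AT4G12490 minus AT4G12500 was -0.36 in array 1 and -0.64 in array 2, a mean difference of -0.50 ± 0.20. AT4G12510 and AT4G12520 could not be ordered, with a difference of -0.31 in array 1 and 0.06 in array 2. In gene order the ratio was lowest at AT4G12490, intermediate at AT4G12500 and highest at AT4G12510 and AT4G12520, in both arrays. This shared order rests on turning array 1 by its dyes. Had the columns been turned before deposit, every array 1 difference would change sign and the order there would be reversed. AT4G12530, the next gene and one of the other hybrid proline-rich genes, stood at -0.30 in array 1 and 0.09 in array 2. AZI1 and EARLI1, which precede AT4G12490, have no value, so the pattern is not known at that end. The array genes are close paralogs whose features may share signal, and in the gene table AT4G12490 also overlaps the gene AT4G12495, which has no named feature.

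**Figure D3:**
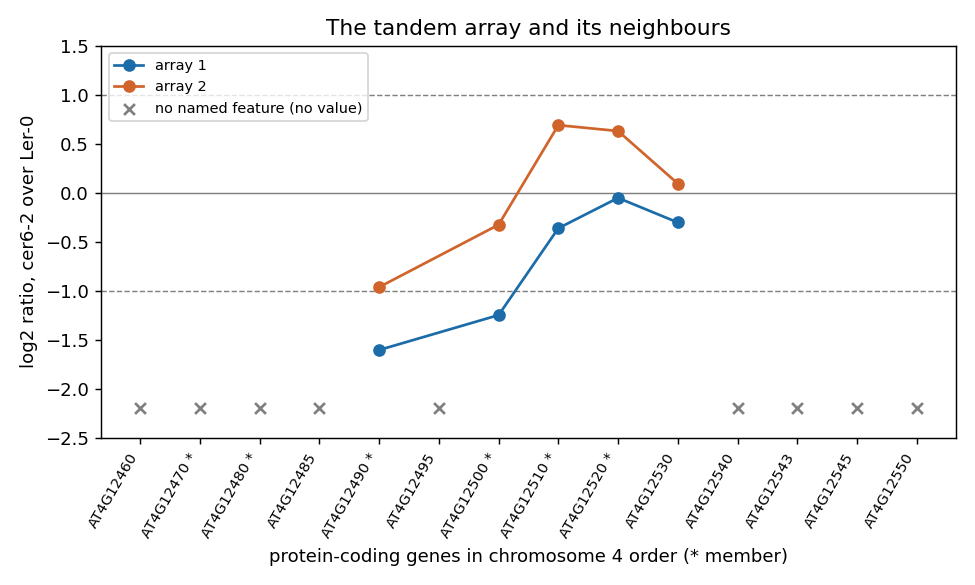
Log2 ratio of cer6-2 over Ler-0 for protein-coding genes in their order on chromosome 4, with 1 line for each array, stars for members and crosses for genes with no named feature and so no value. Both lines are lowest at AT4G12490 and higher at AT4G12510 and AT4G12520, and array 2 lies above array 1 throughout.

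In all 6 members the ratio was higher in array 2 than in array 1, by 0.64 to 1.39. Array 2 had cer6-2 in Cy5. With 1 array for each dye orientation, a dye effect and other differences between the arrays cannot be told apart in this gap. Expressed as the mean log2 ratio of Cy5 over Cy3 over both arrays, it ran from 0.32 for AT4G12490 to 0.69 for AT1G62510, with a median of 0.49. Over all measured genes the median was 0.04, and 55.5% of genes were higher in array 2. A value as high as the lowest member was reached by 14.0% of genes, and one as high as AT1G62510 by 0.942%. A dye term of equal size in both arrays cancels in their mean, and its part in the single-array values was not tested. Had the columns been turned to one direction before deposit, which no label states, these values would be the genotype ratios. AT1G62510 would then stand at 0.69 with opposite signs in the 2 arrays, and no member would be called.

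**Figure D4:**
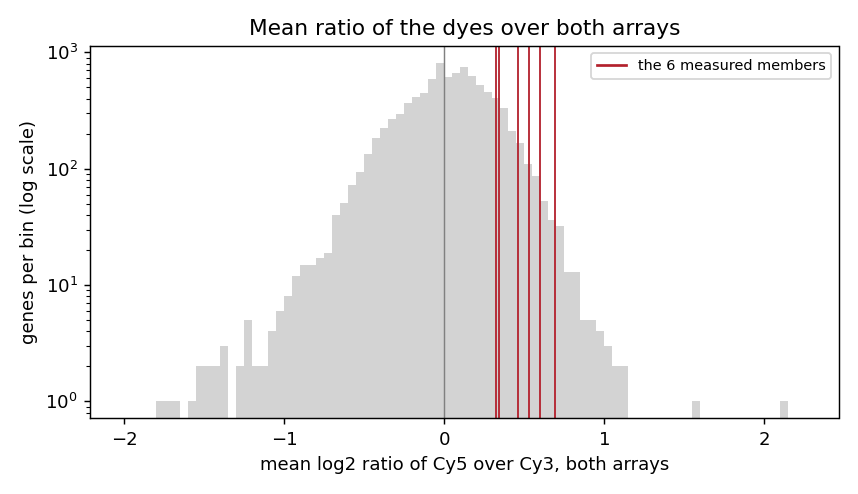
Mean log2 ratio of Cy5 over Cy3 over both arrays (horizontal) against the number of genes per bin (vertical, log scale) for all 9236 measured genes, with red lines for the 6 members. The red lines lie between 0.32 and 0.69, to the right of the median of 0.04.

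The nearest measured genes on either side of AT1G62510 were not called. AT1G62500, which precedes it and is listed among the other hybrid proline-rich genes, stood at -0.19 in array 1 and 0.34 in array 2. AT1G62520, the next measured gene on the other side with 1 unmeasured protein-coding gene between, stood at -0.14 and -0.11. The unmeasured gene AT1G62515 overlaps AT1G62510 in the gene table, so the feature cannot be assigned beyond that locus. SKU5, the nearest measured gene before AT4G12490, stood at 0.46 in array 1 and 0.04 in array 2, with 7 unmeasured protein-coding genes between. The neighbours of AT2G45180 were ATG8E, an autophagy gene, at -0.02 in array 1 and 1.29 in array 2, and MAP1A, a methionine aminopeptidase with 4 unmeasured protein-coding genes between, at 0.24 and -0.40.

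The 5 genes whose pair of array values lay nearest to that of AT1G62510 were NAMT1, AT2G38240, AT5G66650, ATL8 and BGLU45. This likeness is a distance over only 2 arrays. NAMT1, a methyltransferase, was the closest at 1.20 in array 1 and 2.76 in array 2, a distance of 0.26 on the log2 scale. The other four lay at distances of 0.72 to 0.88. BGLU45, a beta-glucosidase, was the farthest of them at 1.36 in array 1 and 1.96 in array 2.

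Related genes were followed through lists compiled for this comparison. Of 19 other hybrid proline-rich genes, 10 were measured and none was called in either direction. Their median was -0.28, with -0.70 in array 1 and 0.06 in array 2. Opposite signs in the 2 arrays were found for 6 of the 10, against 53.6% of all measured genes. The lowest means were those of AT4G00165 (-0.49 ± 0.27) and AT4G22470 (-0.44 ± 0.65), and the highest those of AT4G22610 (0.25 ± 0.20) and AT1G62500 (0.07 ± 0.38). AT1G62510 lay above, and AT4G12490 and AT4G12500 below, the whole range of these 10 means.

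The lists of non-specific and of GPI-anchored lipid transfer proteins were also without a call. Of 28 non-specific lipid transfer proteins, 13 were measured, with a median of -0.23. AT2G18370 and AT1G66850 were lowest, at -1.03 ± 0.55 and -0.85 ± 0.37, and both were below 0 in each array. AT3G53980 and AT5G48490 were highest, at 0.60 ± 0.37 and 0.59 ± 0.54, and both were above 0 in each array. Of 31 lipid transfer proteins with a GPI anchor, 11 were measured, with a median of -0.24. AT3G58550 was lowest at -1.37 ± 0.61, with -1.80 in array 1 and -0.94 in array 2, followed by AT2G48130 at -0.54 ± 0.83. AT1G05450 (0.18 ± 0.40) and AT5G09370 (0.07 ± 0.23) were highest, each with opposite signs in the 2 arrays.

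**Figure D5:**
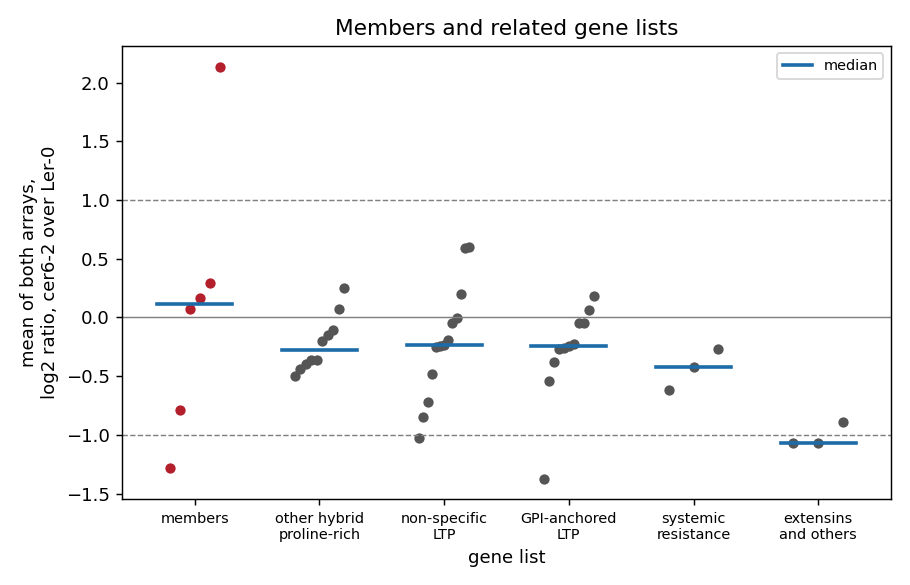
Log2 ratio of cer6-2 over Ler-0 averaged over both arrays, with a point for each measured gene of the members (red) and of 5 related lists (grey), blue bars for medians and dashed lines at 2-fold. The members spread from -1.28 to 2.14, while the other hybrid proline-rich genes lie between -0.49 and 0.25. Without AT1G62510 the highest member is at 0.29, and the GPI-anchored list reaches lower than the members, to -1.37.

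The list of systemic acquired resistance, the process in which AZI1 acts, had 3 of 22 genes measured and none called. AT5G03350 stood at -0.61 ± 0.46, AT5G52810 at -0.43 ± 0.24 and UGT76B1, a glycosyltransferase, at -0.27 ± 0.06. All 3 were below 0 in both arrays, as were 1885 of all 9236 genes. Of 23 extensins and other proline-rich wall proteins, 3 were measured and none was called. The extensin gene HRGP1 stood at -1.79 in array 1 and -0.35 in array 2, its neighbouring paralog AT3G54580 at -1.80 and -0.33, and AT2G43150 at -1.53 and -0.25. These 3 were below 0 in both arrays, and array 2 was the higher one here too. The features of the paralogs HRGP1 and AT3G54580 may share signal, so they may not be separate observations, which was not tested.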

How the data were processed

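The authors deposited a table of 22575 features, whose values were read here as log10 ratios of the channels. The base was inferred from the limit of 2 in size. How images were extracted and how background and dyes were corrected is not given in the sources used here, nor is the ratio's numerator. The median of each deposited column was 0. Values were converted to log2, and array 1 was multiplied by -1 to give cer6-2 over Ler-0, per the labels' dyes. Gene names came from the platform annotation and a RefSeq gene table of assembly TAIR10.1. Of them, 9317 matched 1 gene, 40 were annotated with several genes, 18 had no match and 13200 were unnamed. The matched features covered 9236 genes, 78 with several features, which were averaged. Each measured member had 1 feature. No coordinate is given because the array's build is not stated. Calls are a rule of size and not a test, with no calibrated error rate, since the arrays were read as repeats of 1 pool per genotype. The number of arrays limits the precision of each ratio, and more arrays of the same pools would not replicate the genotype difference.

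Across all genes the arrays correlated with r = 0.17 (Spearman's rho -0.04), over genes that are not independent replicates. The 2-fold rule called 122 genes, and 15 passed 2-fold with opposite signs.

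The members, the 5 lists with 123 genes (40 measured) and the rules were chosen with earlier results of these data known. Named were all members, the highest 2 and lowest 2 genes of each list (all of a list with up to 4), the nearest measured neighbours and the 5 genes nearest AT1G62510. Protein and promoter sequences were not used here. Python 3.11.15, pandas 2.3.3, numpy 2.4.6, scipy 1.17.1 and matplotlib 3.10.9 were used.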

Additional observations from a re-analysis of the deposited data

How the results depend on the processing

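AT1G62510 was the member called higher under centring, the median of features, 1.5-fold, the mean rule and either array alone. The count of members called higher was 0 at 3-fold, without features that differ over 2-fold between arrays, with array 1 left unturned (columns already turned by the authors), and with the values read as log2. The second setting removes AT1G62510, AT4G12510 and AT2G45180 by construction, and the member median is then -0.79. The count called lower, 0, was 1 (AT4G12490) at 1.5-fold and by the mean, and 2 (with AT4G12500) in array 1 alone. Counts over all genes were 55 higher and 67 lower. They were 166 and 176 at 1.5-fold, 11 and 20 at 3-fold, 91 and 121 by the mean, 114 and 215 in array 1 alone, 169 and 200 in array 2 alone, 2 and 13 read as turned, and 0 and 0 read as log2. Of the 34 named genes, 24 moved by more than the SD between arrays when read as turned, and 15 when read as log2. The sign of the mean did not change for any called gene of these 34 in the settings that held it. Each of them was above 0 in both arrays and higher in array 2. Reading array 1 as turned therefore could not change the sign of the mean, although the array 1 value changes sign. Members that were not called could change sign under that reading. The mean of AT4G12490 went from -1.28 to 0.32 and that of AT4G12500 from -0.79 to 0.46. The means of AT4G12510, AT4G12520 and AT2G45180 stayed above 0. AT1G62510, AT2G38240 and NAMT1 are absent without features that differ over 2-fold. Swapping the numerator, which turns every sign, was not run. Each ratio already pairs both genotypes within 1 array. No paired test over biological replicates was possible, because the arrays were taken as repeats of the same pools, 1 per genotype. Signal over background is unknown, so low transcripts cannot be told from unchanged ones.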

Other observations

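The values here were picked after the data had been seen. The ratio was higher in array 2 than in array 1 for 8 of 10 other hybrid proline-rich genes, 11 of 13 non-specific lipid transfer proteins and 10 of 11 with a GPI anchor. The same held for all 3 extensins and other wall proteins and all 3 systemic acquired resistance genes, against 55.5% of all measured genes. The median of the mean log2 ratio of Cy5 over Cy3 was 0.31, 0.24, 0.26, 0.72 and 0.17 in these lists, in that order. A dye effect and other differences between the arrays cannot be told apart here.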
